A study of Mus musculus with 16 samples.

Results

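The genes described here are 10 proteins of the endoplasmic reticulum (ER) and its stress response: Hspa5, Hyou1, Dnajb9, Hsp90b1, Calr, Canx, Pdia3, Pdia4, Pdia6 and Xbp1. They were found by symbol in the authors' deposited comparison tables and joined by Ensembl identifier to the deposited count table. All 10 were present among its 55487 genes, and all 10 passed the filter on low counts that 16549 genes passed. RNA came from inguinal white adipose tissue, the subcutaneous fat depot of the groin, of male mice aged 6 to 7 months. The 4 groups were whole-body Kmo knockout (KO) mice on a high-fat diet (HFD), wild-type (WT) littermates on HFD, KO mice on chow and WT littermates on chow, with 4 animals in each. Kmo encodes kynurenine 3-monooxygenase, an enzyme of tryptophan breakdown, and was lost in every tissue of the KO mice. The composition of the HFD and the time spent on it are not given in the sources used here. Each library is a sample of its own. The tests set differences between group means against the spread between samples, with an estimate of that spread shared by all 4 groups.

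Secreted and membrane proteins fold in the ER, where chaperones bind unfinished chains, lectin chaperones hold glycoproteins and disulfide isomerases join cysteines. When unfolded protein builds up, the sensors IRE1, PERK and ATF6 start the unfolded protein response, which raises the transcription of chaperone genes. In white fat this machinery serves adipocytes, which secrete adiponectin and leptin, as well as matrix-making fibroblasts and antibody-making plasma cells. The list goes beyond chaperones in the strict sense: Xbp1 encodes a transcription factor of the response, and Dnajb9 and Hyou1 encode helpers of the chaperone made by Hspa5. Xbp1 acts in its spliced form, and counts per gene do not separate spliced from unspliced RNA.

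Libraries held 13824404 to 16909361 counted read pairs, so 1 CPM, the unit of level used here (counts scaled to library size with TMM factors), stood for 14.1 to 16.5 pairs, and the rarest of the 10 genes had at least 567 pairs in every library. Kmo had 1 to 8 counts in KO libraries and 40 to 298 in WT libraries, so the genotype labels fitted the targeted gene. Adipocyte markers were abundant in every library (lowest 2424 counts, for Pparg), whereas the 5 epithelial markers had at most 23 counts. Counting ignored strand, and 415 bases of Hsp90b1, 10.3% of its exon length, overlap 1810014B01Rik on the opposite strand, so reads of that pair cannot be told apart. Hsp90b1 also shares 133 bases with Gm25745 (3.3%) and 84 with Gm15344 (2.08%) on its own strand. Of the other members, Pdia6 shares 50 bases with Atp6v1c2 and Pdia3 shares 18 with Catsper2, Pdia4 and Dnajb9 share 14 each with a microRNA gene, and Hspa5, Calr, Canx, Xbp1 and Hyou1 share none.

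In the genome (GRCm38, coordinates of the count table) Hspa5 lies at chr2:34771970-34777547, Hyou1 at chr9:44379490-44392369 and Dnajb9 at chr12:44205559-44210326. Hsp90b1 lies at chr10:86690209-86705509, Calr at chr8:84841850-84846934 and Canx at chr11:50293961-50325673. The disulfide isomerase genes lie at chr2:121413775-121438687 for Pdia3, chr6:47796141-47813430 for Pdia4 and chr12:17266545-17284770 for Pdia6, and Xbp1 lies at chr11:5520659-5525893. RefSeq windows from 250 bases before to 50 after the start site (GRCm38.p6) were at hand for 9 of the 10 genes. They were searched on both strands for the ER stress element, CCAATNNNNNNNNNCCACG, through which ATF6 and XBP1 are known to act together with NF-Y. This element was found in 5 of the 9 windows, those of Hspa5, Hsp90b1, Calr, Canx and Pdia6, and in 39 of all 32851 windows (0.119%). The stretches below are shown because they place the element in the members' own sequence. Each reads 5′ to 3′ on the strand of the gene, with the match in capitals and position counted from the start site to the first base of the match. Hspa5 holds it at position −65 (chr2:34772020-34772048, plus strand), inside the first exon that the count table's annotation gives for the gene. Hsp90b1 holds it at −212 (chr10:86705618-86705676, minus strand of the genome) and again at −107 (chr10:86705513-86705571), the second time in reverse. Calr holds it in reverse at −162 (chr8:84847055-84847113, minus strand), Canx at −145 (chr11:50325780-50325838, minus strand) and Pdia6 at −98 (chr12:17266471-17266529, plus strand).
Hspa5 at −65: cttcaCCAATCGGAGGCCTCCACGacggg
Hsp90b1 at −212: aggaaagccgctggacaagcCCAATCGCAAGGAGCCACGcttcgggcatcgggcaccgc
Hsp90b1 at −107, reversed: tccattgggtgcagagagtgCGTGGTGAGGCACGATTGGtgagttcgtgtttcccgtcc
Calr at −162, reversed: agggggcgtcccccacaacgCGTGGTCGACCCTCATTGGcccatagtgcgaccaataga
Canx at −145: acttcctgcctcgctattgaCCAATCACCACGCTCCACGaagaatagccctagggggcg
Pdia6 at −98: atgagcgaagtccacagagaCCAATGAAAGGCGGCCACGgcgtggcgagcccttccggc

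No window of the 10 genes held the ER stress element II, ATTGG and CCACG with any 1 base between them (0.0365% of all windows), or the unfolded protein response element, TGACGTGG (0.676%). The 5-letter CCACG, which is also the end of the ER stress element, was found in 7 of the 9 windows and in 32.8% of all windows. Beyond the 5 genes above, it occurred in the windows of Pdia4 and Dnajb9, and the windows of Pdia3 and Xbp1 lacked it. A match describes letters in these windows and is not evidence of binding. Hyou1 had no window and was not searched.

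Levels were compared between genes only as CPM per kilobase of exon. The length is that of all exons annotated to a gene, not of 1 transcript, and the order depends on it. Before division by length, mean CPM was higher for Hspa5 than for Calr in each group (568 and 397 in KO HFD). Calr, a soluble lectin chaperone, stood at 138 ± 7.95 CPM per kb in KO HFD, 152 ± 17.2 in WT HFD, 108 ± 9.89 in KO chow and 108 ± 10.96 in WT chow (SD, n = 4 each). Hspa5, the ER Hsp70 known as BiP, stood at 134 ± 24.2 CPM per kb in KO HFD, 150.2 ± 26.8 in WT HFD, 79.3 ± 11.2 in KO chow and 76.3 ± 11.3 in WT chow. Calr had the highest mean in each group, and its libraries overlapped those of Hspa5 in both HFD groups but lay above them in both chow groups. Pdia3 and Hsp90b1 followed, with libraries that overlapped each other in KO HFD (86.6 ± 6.24 and 75.8 ± 6.00 CPM per kb) and in WT HFD (99.1 ± 13.3 and 89.9 ± 15.1). Canx, Pdia6 and Xbp1 formed the middle of the order on HFD, with KO HFD means between 53.4 and 56.6 CPM per kb and libraries that overlapped each other. Pdia4 (35.1 ± 5.75 CPM per kb in KO HFD), Dnajb9 (19.3 ± 2.29) and Hyou1 (10.5 ± 0.815) closed the order without overlap, and the same 3 genes were last in each of the 4 groups. On chow, Xbp1 stood above Pdia6 and Canx, in KO at 61.1 ± 4.10 CPM per kb, and overlapped its neighbour Hsp90b1.

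**Figure D1:**
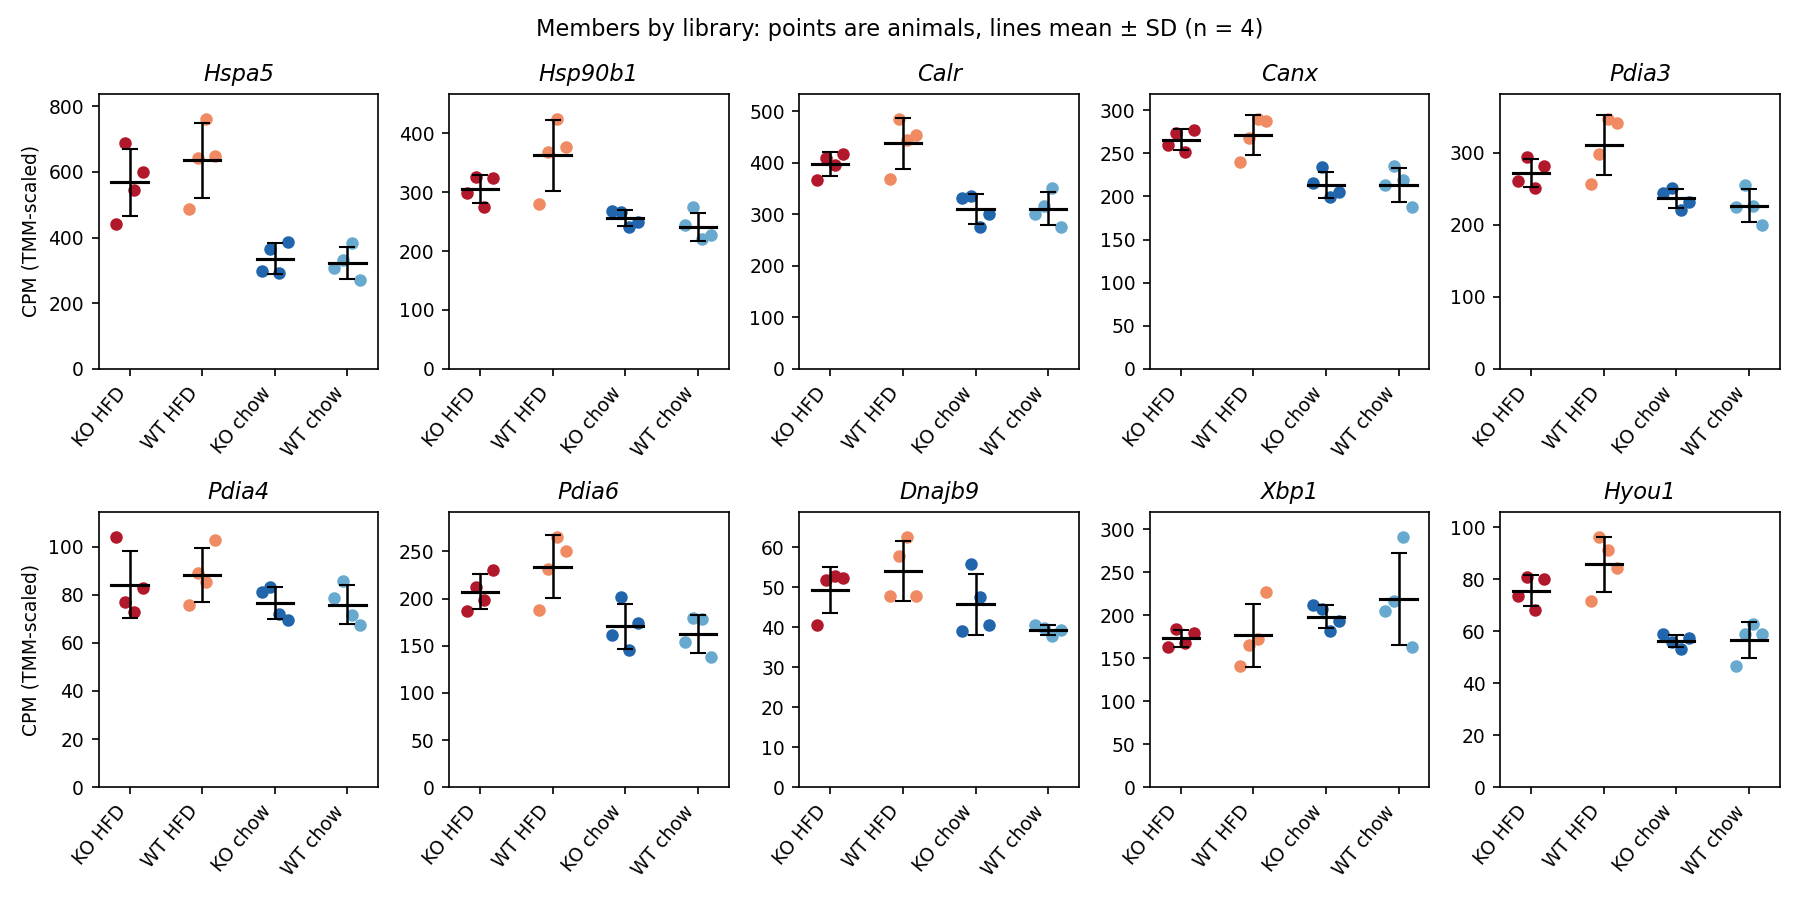
CPM of the 10 genes in each of the 16 libraries. Points are animals, and bars give mean ± SD (n = 4). The axes start at 0. Hspa5, Hyou1, Calr, Canx and Hsp90b1 had every HFD library above every chow library, whereas Xbp1 points of all groups overlap.

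The comparison of HFD with chow asks what the diet changes in this fat depot within each genotype. Most of the ER folding genes rose on HFD in at least 1 genotype, Hspa5 by the most: 1.69-fold in KO and 1.97-fold in WT. In KO mice 4 of the 10 genes rose, namely Hspa5, Hyou1, Calr and Canx. In WT mice 8 rose, and Pdia4 and Xbp1 did not pass the test. No gene fell in either genotype, and the difference between the genotypes did not pass its own test, given below. Xbp1 stood apart from the others, with a mean below that of chow in both genotypes. The summed level of the 10 genes was 2196 to 2597 CPM in KO HFD, 2156 to 2946 in WT HFD, 1727 to 2054 in KO chow and 1624 to 2040 in WT chow. All HFD libraries lay above all chow libraries in that sum. In bulk tissue, more cells of a type and more RNA per cell cannot be told apart.

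BiP and its helpers were measured as follows. Hspa5 had 443, 687, 544 and 599 CPM in KO HFD, 487, 642, 763 and 649 CPM in WT HFD, 299, 366, 292 and 386 CPM in KO chow, and 307, 331, 383 and 269 CPM in WT chow. Every HFD library was above every chow library, and the lowest of the HFD groups were KO HFD replicate 1 and WT HFD replicate 1. Its log2 fold change was 0.76 in KO (SE 0.17, edgeR adjusted p = 0.0113), 0.98 in WT (SE 0.17, adjusted p = 0.0039) and 0.87 over both genotypes (SE 0.12, adjusted p = 1.64e-04). Hyou1, a large Hsp70 relative, recharges BiP with nucleotide. Its levels were 73.4, 80.8, 68.4 and 80.2 CPM in KO HFD, 71.8, 96.3, 91.2 and 84.2 CPM in WT HFD, 58.9, 55.7, 53.4 and 57.3 CPM in KO chow, and 46.7, 58.9, 62.7 and 58.8 CPM in WT chow. HFD and chow libraries did not overlap, and WT chow replicate 1 was the lowest of all. Hyou1 rose by 0.43 in KO (SE 0.11, edgeR adjusted p = 0.0191) and by 0.60 in WT (SE 0.11, adjusted p = 0.00475) on the log2 scale. Dnajb9, the J-domain partner of BiP known as ERdj4, is a known target of XBP1. Dnajb9 had 40.6, 51.8, 52.7 and 52.2 CPM in KO HFD, 47.7, 57.9, 62.5 and 47.7 CPM in WT HFD, 39.0, 55.7, 47.6 and 40.6 CPM in KO chow, and 40.6, 39.7, 37.7 and 39.4 CPM in WT chow. The WT diets did not overlap, while KO chow replicate 2 was above all 4 KO HFD libraries and KO HFD replicate 1 was below the other 3 of its group. Its log2 fold change was 0.11 in KO (SE 0.13, edgeR adjusted p = 0.588), which did not pass, and 0.45 in WT (SE 0.13, adjusted p = 0.0312), where it rose. Over both genotypes Dnajb9 rose by 0.28 (SE 0.09, edgeR adjusted p = 0.0243), a call lost without KO HFD replicate 3 (log2 fold change 0.27, edgeR adjusted p = 0.0508) or WT HFD replicate 3 (log2 fold change 0.24, edgeR adjusted p = 0.056).

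Hsp90b1 encodes GRP94, the Hsp90 of the ER, which folds integrins and Toll-like receptors. It had 299, 326, 274 and 323 CPM in KO HFD, 279, 369, 425 and 377 CPM in WT HFD, 268, 266, 240.2 and 249 CPM in KO chow, and 244, 274, 220.1 and 226 CPM in WT chow. HFD and chow libraries did not overlap, although KO HFD replicate 3 at 274.2 CPM and WT chow replicate 2 at 273.9 CPM nearly met. On the log2 scale the value in KO was 0.26 (SE 0.12, edgeR adjusted p = 0.166), and in WT the gene rose by 0.59 (SE 0.12, adjusted p = 0.00895). Over both genotypes it rose by 0.42 (SE 0.09, edgeR adjusted p = 0.00201).

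Calr and Canx encode calreticulin and calnexin, the soluble and the membrane-bound lectin chaperone that hold glycoproteins until they are folded. Calr had 366, 409.8, 396 and 418 CPM in KO HFD, 369, 486, 443 and 453 CPM in WT HFD, 331, 335, 274 and 299.6 CPM in KO chow, and 301, 316, 352 and 276 CPM in WT chow. Canx had 260.1, 274, 252 and 278 CPM in KO HFD, 239.8, 268, 290.5 and 288 CPM in WT HFD, 216, 234, 199.8 and 205 CPM in KO chow, and 213, 235, 219 and 187 CPM in WT chow. For both genes every HFD library exceeded every chow library, by the least for Canx, where WT HFD replicate 1 was close to WT chow replicate 2. Calr rose by 0.36 in KO (SE 0.11, edgeR adjusted p = 0.0455) and by 0.49 in WT (SE 0.11, adjusted p = 0.013) on the log2 scale. Canx rose by 0.32 in KO (SE 0.10, edgeR adjusted p = 0.0416) and by 0.35 in WT (SE 0.10, adjusted p = 0.0295). Both KO calls were close to the threshold. That of Calr held in 4 of the 16 fits that leave out 1 library (without KO HFD replicate 1, WT HFD replicate 1 or WT chow replicate 3 or 4) and in 5 of 15 alternatives. That of Canx held in 8 of 16 and in 5 of 15, and was lost without any 1 of the KO HFD libraries, WT HFD replicate 2 or KO chow replicate 1, 3 or 4. With the replicate block the edgeR adjusted p in KO was 0.0842 for Calr and 0.0793 for Canx.

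The protein disulfide isomerases differed among themselves. Pdia3 encodes ERp57, which joins disulfides in glycoproteins held by the lectin chaperones. Pdia3 had 261, 295, 251 and 281 CPM in KO HFD, 257, 299, 347 and 341 CPM in WT HFD, 243, 250.4, 220.3 and 232 CPM in KO chow, and 225, 255, 226 and 199.6 CPM in WT chow. Within each genotype the diets did not overlap, but WT chow replicate 2 was above KO HFD replicate 3. Its log2 fold change was 0.20 in KO (SE 0.11, edgeR adjusted p = 0.231), which did not pass, and 0.46 in WT (SE 0.11, adjusted p = 0.0173), where it rose. Pdia6, another isomerase that works with BiP, was measured next. Pdia6 had 187, 213, 199 and 230.0 CPM in KO HFD, 188, 231, 265 and 250.2 CPM in WT HFD, 162, 201, 145 and 174 CPM in KO chow, and 154, 179.7, 178 and 138 CPM in WT chow. WT diets did not overlap, and KO chow replicate 2 was above KO HFD replicates 1 and 3. On the log2 scale Pdia6 had 0.28 in KO (SE 0.13, edgeR adjusted p = 0.162) and rose in WT by 0.53 (SE 0.13, adjusted p = 0.0205). Pdia4, which encodes ERp72, ranged over 73.0 to 104 CPM in KO HFD, 75.7 to 103 CPM in WT HFD, 69.5 to 83.2 CPM in KO chow and 67.3 to 85.7 CPM in WT chow. These ranges overlapped in both genotypes, and the log2 fold change over both genotypes was 0.18 (SE 0.09, edgeR adjusted p = 0.128). Its highest library was KO HFD replicate 1, which was the lowest or second lowest of KO HFD for each of the other 9 genes.

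Xbp1 ranged over 163 to 184 CPM in KO HFD, 141 to 228 CPM in WT HFD, 182 to 212 CPM in KO chow and 163 to 291 CPM in WT chow. The lowest library of all was WT HFD replicate 1 and the highest WT chow replicate 3, and the diets overlapped in both genotypes. The log2 fold change of Xbp1 was −0.19 in KO (95% interval −0.53 to 0.14, edgeR adjusted p = 0.436), −0.31 in WT (interval −0.65 to 0.03, adjusted p = 0.21) and −0.25 over both genotypes (interval −0.49 to −0.01, adjusted p = 0.0969). Total Xbp1 RNA thus did not pass the test, and the interval over both genotypes lay below 0. Xbp1 passed as lower over both genotypes in 4 of 14 alternatives. With the lymphoid or the adipocyte score as a covariate it passed over both genotypes at log2 fold changes of −0.36 and −0.46 (edgeR adjusted p = 0.0166 and 0.0292), the adipocyte score being chosen after the data were seen. It also passed without WT HFD replicate 4 (log2 fold change −0.32, edgeR adjusted p = 0.0287) or WT chow replicate 4 (log2 fold change −0.31, edgeR adjusted p = 0.0351).

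**Figure D2:**
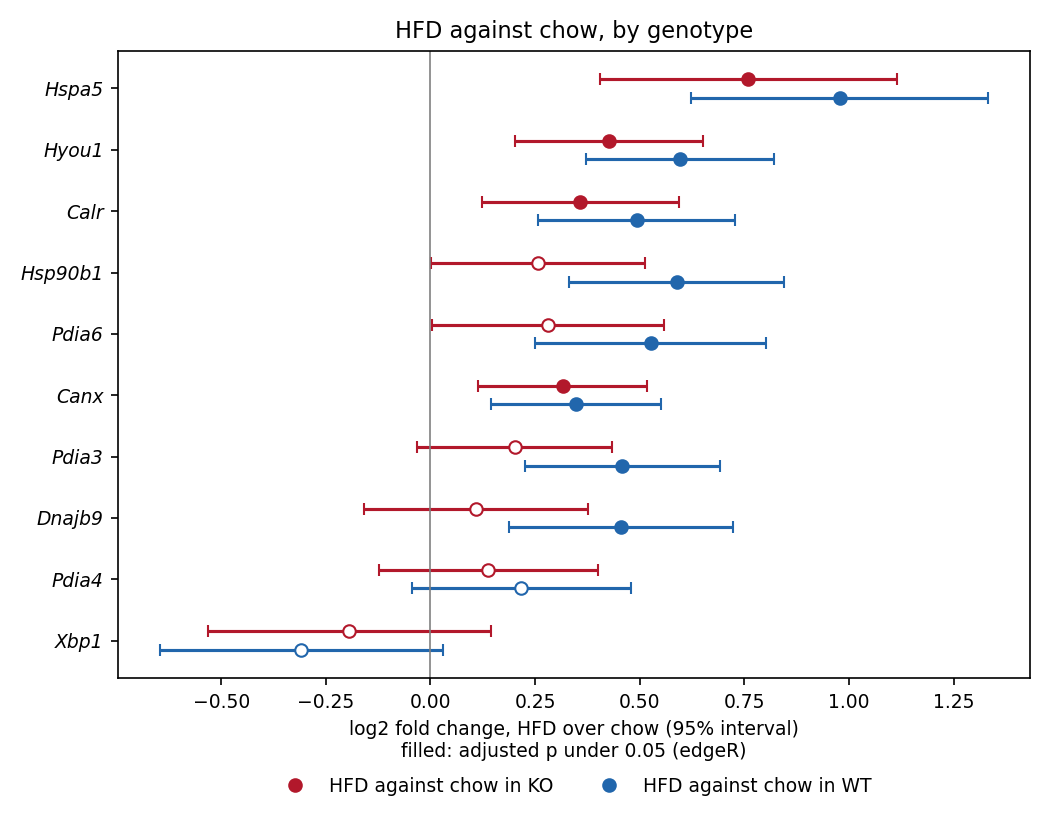
Log2 fold change of HFD over chow for each gene in KO (red) and WT (blue) mice, with 95% intervals. Filled points had an edgeR adjusted p under 0.05. The KO value was nearer to 0 than the WT value for all 10 genes, and the intervals of the genotypes overlap for each gene.

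Against the background of all genes tested, 4 of 10 members rose in KO where 7.28% of all genes did (12.5% changed in either direction and 5.23% fell), and 8 of 10 rose in WT where 6.9% of all genes did (11.8% in either direction and 4.92% fell). Over both genotypes 8 of 10 rose, against 17.1% of all genes (33.1% in either direction). The median log2 fold change of the 10 genes was 0.27 in KO, 0.48 in WT and 0.37 over both genotypes, beside medians of all genes of −0.04, −0.03 and −0.04. HFD and chow libraries did not overlap for 6 of 10 genes in KO (18.6% of all genes), 8 in WT (17.4%) and 5 over both genotypes (6.85%). The counts within a genotype depended on single libraries. In KO the count was 1 without KO HFD replicate 2 or 4 or KO chow replicate 3, and 2 without KO HFD replicate 3, WT HFD replicate 2 or KO chow replicate 1, 2 or 4. In WT it was 4 without WT HFD replicate 3 or WT chow replicate 4 and 5 without WT chow replicate 1. Over both genotypes the count of calls in either direction stayed between 7 and 9 when any single library was left out. In 2 of these 16 fits it included Xbp1, which passed as lower. By the column names, 12 libraries were merged over lanes and 4 came from 1 lane (KO HFD replicate 1, WT HFD replicates 3 and 4 and WT chow replicate 2), too few for a comparison of their own. Among the 12 merged libraries, which hold 2 of WT HFD, the count was 1 in KO, 0 in WT and 8 over both genotypes, and there the log2 fold change of Hspa5 was 0.86 in KO, 0.82 in WT and 0.84 over both genotypes. Only the calls of Hspa5 held in all 16 such fits in KO, and in WT those of Hspa5, Hyou1, Hsp90b1 and Calr did. In KO that of Hyou1 was lost without KO HFD replicate 2 or 4 or KO chow replicate 2 or 3. In WT those of Canx, Pdia6 and Dnajb9 were lost without WT HFD replicate 3 or WT chow replicate 1 or 4, and that of Pdia3 without WT HFD replicate 3 or WT chow replicate 4. In WT those of Canx and Dnajb9 were also lost without WT HFD replicate 2, that of Canx without WT HFD replicate 4 and that of Dnajb9 without WT chow replicate 3.

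Some markers of the cell types in the depot also passed the test of the diet. Over both genotypes 17.1% of all genes tested rose and 16% fell. Beside these shares, 1 or 2 calls in a short list do not by themselves show a change of that cell type. Median log2 fold changes were 0.36 for macrophage markers (8 of 8 above 0) and 0.35 for endothelial markers (5 of 6). They were 0.30 for fibroblast and progenitor markers (6 of 7) and 0.16 for adipocyte markers (6 of 8). Those of B cell and plasma cell markers (1 of 7) and muscle markers (0 of 8) were −1.01 and −0.82. All genes had −0.04 and the members 0.37. Whether cell numbers changed was not tested. The summed level of 8 adipocyte markers was 27697 to 34653 CPM in KO HFD, 27288 to 34120 in WT HFD, 21195 to 29874 in KO chow and 18578 to 26500 in WT chow (2 of 8 higher and 1 lower over both genotypes, by edgeR). That of 7 fibroblast and progenitor markers was 4902 to 6598 CPM in KO HFD, 3818 to 7692 in WT HFD, 2344 to 4984 in KO chow and 2552 to 6072 in WT chow (2 of 7 higher). That of 8 macrophage markers was 1013 to 1467 CPM in KO HFD, 927 to 1746 in WT HFD, 758 to 1690 in KO chow and 809 to 2054 in WT chow (2 of 8 higher). The macrophage calls were close to the threshold: leaving out 1 library gave 0 to 3, with 0 without KO HFD replicate 1, 2 or 3, WT HFD replicate 2 or 3, KO chow replicate 2 or 3 or WT chow replicate 1, 3 or 4, and 1 without KO HFD replicate 4, WT HFD replicate 4 or KO chow replicate 4. Leaving out 1 library gave 1 to 3 fibroblast calls, 1 to 4 endothelial calls, and 2 higher and 0 to 2 lower adipocyte calls. The KO adipocyte ranges overlapped between diets, and the WT ranges did not. T cell markers ran from 4.22 to 125 CPM on HFD and from 8.25 to 338 on chow, and none of the 8 passed over both genotypes by edgeR (1 at an unadjusted p under 0.05). All 8 had log2 fold changes below 0, with a median of −2.14. Without KO HFD replicate 1, 7 of the 8 passed as lower, DESeq2 and limma-voom called 2 and 1 lower, and with the adipocyte score 4 passed as higher. B cell and plasma cell markers summed to 1250 to 1733 CPM in KO HFD, 863 to 2105 in WT HFD, 491 to 1078 in KO chow and 541 to 1542 in WT chow. Of these Ighm rose (log2 fold change 1.13 over both genotypes, edgeR adjusted p = 4.71e-04) and the other 6 tested had values below 0, while the plasma cell gene Mzb1 had 0 to 25 counts. Endothelial markers summed to 546 to 1014 CPM in KO HFD, 510.5 to 827 in WT HFD, 500.0 to 685 in KO chow and 399.9 to 625 in WT chow (3 of 6 higher, 1 without KO HFD replicate 3, WT HFD replicate 3 or KO chow replicate 3), and none of 8 skeletal muscle markers passed. With the macrophage, fibroblast or adipocyte score as a covariate, alternatives added after the data were seen, 8, 6 and 5 of the 10 genes rose over both genotypes, and Xbp1 fell in the adipocyte fit. Within KO these fits called 2, 1 and 1 of the 10 genes and within WT 3, 4 and 3. In those 3 fits the log2 fold change of Hspa5 over both genotypes was 0.82, 0.81 and 0.68. The macrophage, fibroblast and adipocyte markers themselves had median log2 fold changes of 0.36, 0.30 and 0.16 for HFD over chow. The adipocyte markers include Lep, with a log2 fold change of 1.90 over both genotypes. A covariate that differs with the diet can take up part of the diet difference. The counts in these fits therefore cannot separate cell composition from the diet, and the part of cell composition was not tested.

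Other genes of the secretory pathway moved with the diet as well. Among 22 other folding factors 14 rose over both genotypes and none fell (8 in KO and 12 in WT), with a median log2 fold change of 0.30. When 1 library was left out the count was 12 to 16 over both genotypes, 5 to 10 in KO and 8 to 12 in WT, the KO count of 5 coming without KO HFD replicate 2, 3 or 4 or KO chow replicate 3. With the adipocyte score it was 9 over both genotypes, 4 in KO and 7 in WT, and among the merged libraries it was 0 in WT. They included Pdia5, a further disulfide isomerase (0.91, edgeR adjusted p = 1.19e-04), P4hb, the founding isomerase and a subunit of collagen prolyl hydroxylase (0.64, adjusted p = 2.44e-04), Dnajc3, a J-domain partner of BiP (0.45, adjusted p = 2.32e-04), and Uggt1, the glycoprotein folding sensor (0.44, adjusted p = 2.98e-04). Of 15 translocon and signal peptidase genes 6 rose and none fell, led by Sec61a1, the channel subunit (0.52, edgeR adjusted p = 3.75e-04), and Ssr2 (0.40). That count was 3 without KO HFD replicate 2 or 4, WT HFD replicate 2 or 4, KO chow replicate 3 or WT chow replicate 4, and 1 with the adipocyte score, and 1 gene passed as lower without KO HFD replicate 1 or WT chow replicate 2. Of 14 genes of ER-associated degradation 5 rose and 1 fell: Edem1, which marks glycoproteins for disposal, rose by 0.76 (edgeR adjusted p = 6.35e-05), Sel1l and Os9 rose by 0.47 and 0.41, and Herpud1 fell by 0.39 (adjusted p = 0.0016). Of 13 sensors and transcription factors of the response 6 rose and 2 fell. Creb3l2 (0.62, edgeR adjusted p = 5.46e-04) and Eif2ak3, which encodes PERK (0.37, adjusted p = 0.00267), rose, and Ppp1r15b (−0.39, adjusted p = 5.90e-04) and Nfe2l2 (−0.37, adjusted p = 0.00122) fell. Leaving out 1 library gave 5 or 6 higher among both degradation genes and sensors, and the adipocyte score gave 3 in each. The share that rose was 17.1% over all genes tested, as above, and these lists were chosen with earlier results of the same libraries known.

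**Figure D3:**
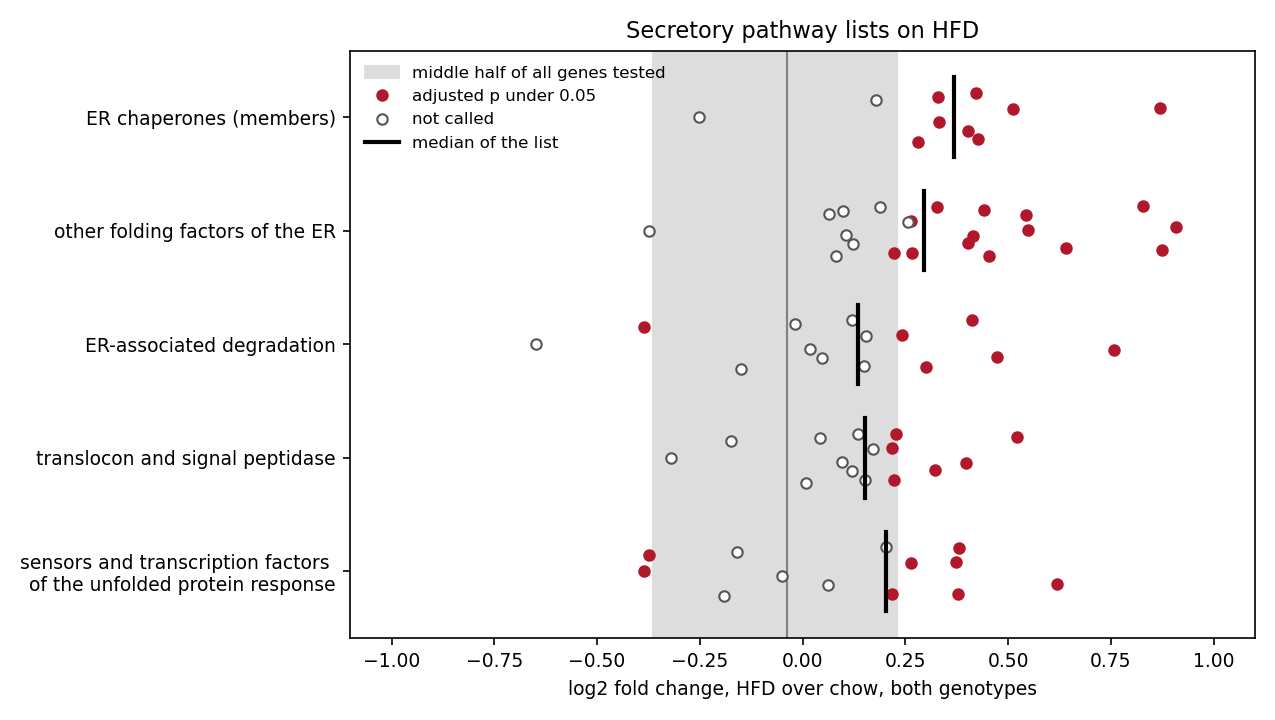
Log2 fold change of HFD over chow over both genotypes for the 10 members and 4 other lists of the secretory pathway. Red points had an edgeR adjusted p under 0.05, the black bar is the list's median, the grey line the median of all genes tested and the shaded band their interquartile range. Called genes on the lower side occur only among degradation genes (Herpud1) and among sensors and transcription factors (Ppp1r15b and Nfe2l2).

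The comparison of KO with WT asks what loss of Kmo changes on each diet. None of the 10 genes changed on chow, on HFD or over both diets, where the only gene of 16549 called was Kmo (0.00604% in each), and DESeq2 and limma-voom also called 0 of the 10. No member had an unadjusted p under 0.05 in edgeR. On HFD all 10 genes had lower means in KO, with log2 fold changes of −0.25 to −0.03 (median −0.15, beside 0.00 for all genes), and the libraries of the genotypes overlapped for every member (they did not for 1.42% of all genes). Hsp90b1 was furthest, at 306 ± 24.2 CPM in KO HFD and 362 ± 60.8 CPM in WT HFD (SD, n = 4 each), so that the log2 fold change was −0.25 (95% interval −0.50 to 0.01, edgeR unadjusted p = 0.0584 and adjusted p = 1). Pdia3 and Hyou1 followed at −0.19 (interval −0.43 to 0.04) and −0.18 (interval −0.41 to 0.04). Hspa5 was at 568 ± 102.2 CPM in KO HFD and 635 ± 113 CPM in WT HFD, with an interval of −0.51 to 0.19. The side of 0 depended on the fit for some genes. Alternatives reached 0.11 for Hspa5, 0.08 for Canx, 0.03 for Pdia6 and 0.21 for Xbp1, and leaving out 1 library reached 0.01 for Pdia4. Hsp90b1, Calr, Pdia3, Dnajb9 and Hyou1 stayed below 0 in all of these fits. The 10 genes move together within groups, as described below, so 10 values on one side are not 10 separate observations.

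On chow the log2 fold changes of KO over WT ran from −0.14 for Xbp1 to 0.22 for Dnajb9, with a median of 0.03. Libraries of KO and WT overlapped for all 10 (they did not for 0.556% of all genes). Dnajb9 averaged 45.7 ± 7.62 CPM in KO chow and 39.4 ± 1.203 CPM in WT chow, an interval of −0.05 to 0.48, and KO chow replicates 2 and 3 were above all 4 WT chow libraries. Canx ran from 199.8 to 234 CPM in KO chow and from 187 to 235 CPM in WT chow, with an interval of −0.20 to 0.20. Over the 10 genes, the intervals reached down to −0.48 and up to 0.48 on chow, and down to −0.51 and up to 0.31 on HFD, and they differed in width between genes. In the authors' deposited tables, no member passed either, with adjusted p-values of 0.999987 on chow and 0.999912 on HFD for all 10.

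Whether the diet response itself differed between the genotypes was tested by the interaction. It called none of the 10 genes and no gene overall (0 of 16549), with 187 genes and no member at an unadjusted p under 0.05 in edgeR, and DESeq2 and limma-voom called no member. The estimate was below 0 for 9 of 10 genes (median −0.19, beside 0.00 for all genes), and for Xbp1, whose diet values were negative, it was 0.11. In some other fits the estimate was above 0 for Hspa5, Canx or Pdia4, or below 0 for Xbp1. Among the 10 genes, the estimate of Dnajb9 was the lowest in the main fit. Dnajb9 stood at −0.35 (95% interval −0.72 to 0.03), followed by Hsp90b1 at −0.33 (interval −0.69 to 0.03), and neither passed by edgeR. The 4 calls in KO and 8 in WT are therefore not a shown difference between genotypes. The other secretory lists had 0 calls in KO against WT on either diet and in the interaction.

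**Figure D4:**
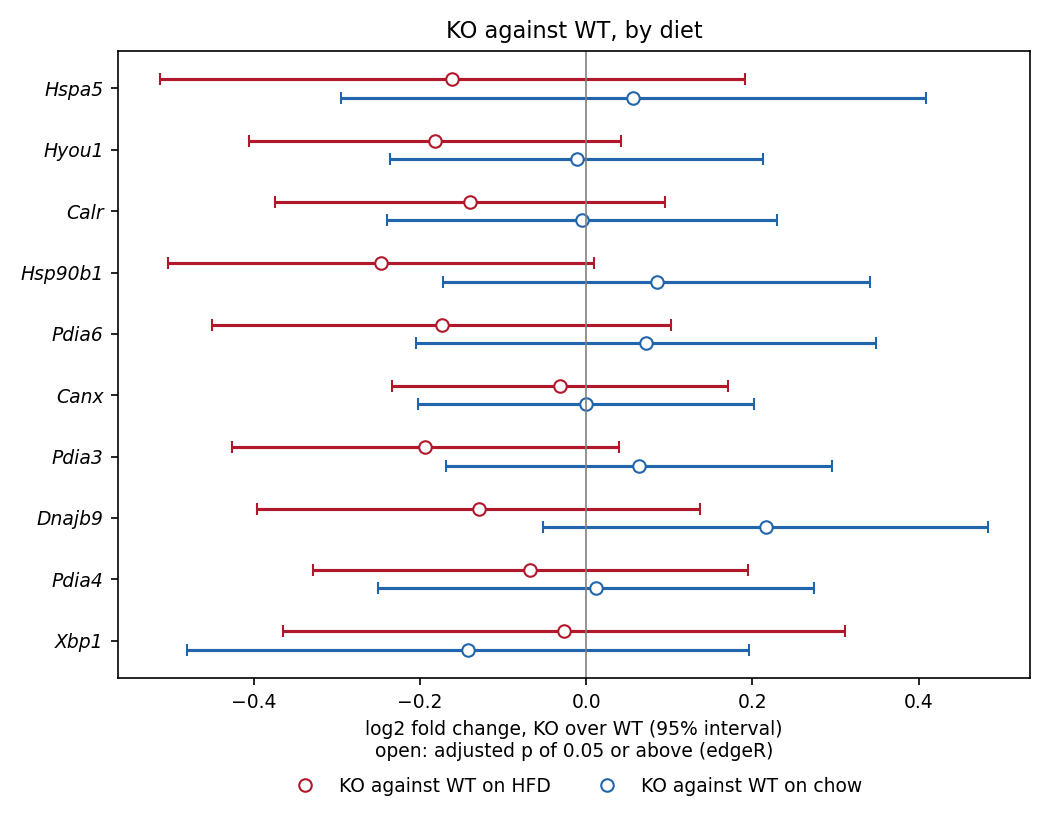
Log2 fold change of KO over WT on HFD (red) and on chow (blue) for each gene, with 95% intervals. No gene passed an edgeR adjusted p of 0.05, every interval includes 0, and the HFD values lie between −0.25 and −0.03.

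The 10 genes also varied together between animals of one group. Each library's log2 CPM was taken as a deviation from its group mean, and over the 16 libraries 42 of the 45 pairs of members had a Pearson correlation above 0, with a median of 0.54. The libraries share depth and tissue composition, and pairs of other genes were not examined in this way, so this is a description. Canx (r = 0.95), Pdia6 (0.94) and Pdia3 (0.93) followed the mean of the 10 standardised deviations most closely, a mean that includes each of them, and Pdia4 (0.46) and Dnajb9 (0.41) least. WT HFD replicate 1 was the lowest library, with a mean standardised deviation of −1.76, and all 10 of its members were below their WT HFD mean. WT chow replicate 4 was next at −1.03, and KO chow replicate 2 and WT HFD replicate 3 were highest at 0.84 and 0.86. Without WT HFD replicate 1 and WT chow replicate 4, r with the mean of the members was lower for all 10. It was then 0.93 for Canx, 0.69 for Hspa5, 0.53 for Xbp1 and 0.19 for Pdia4.

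**Figure D5:**
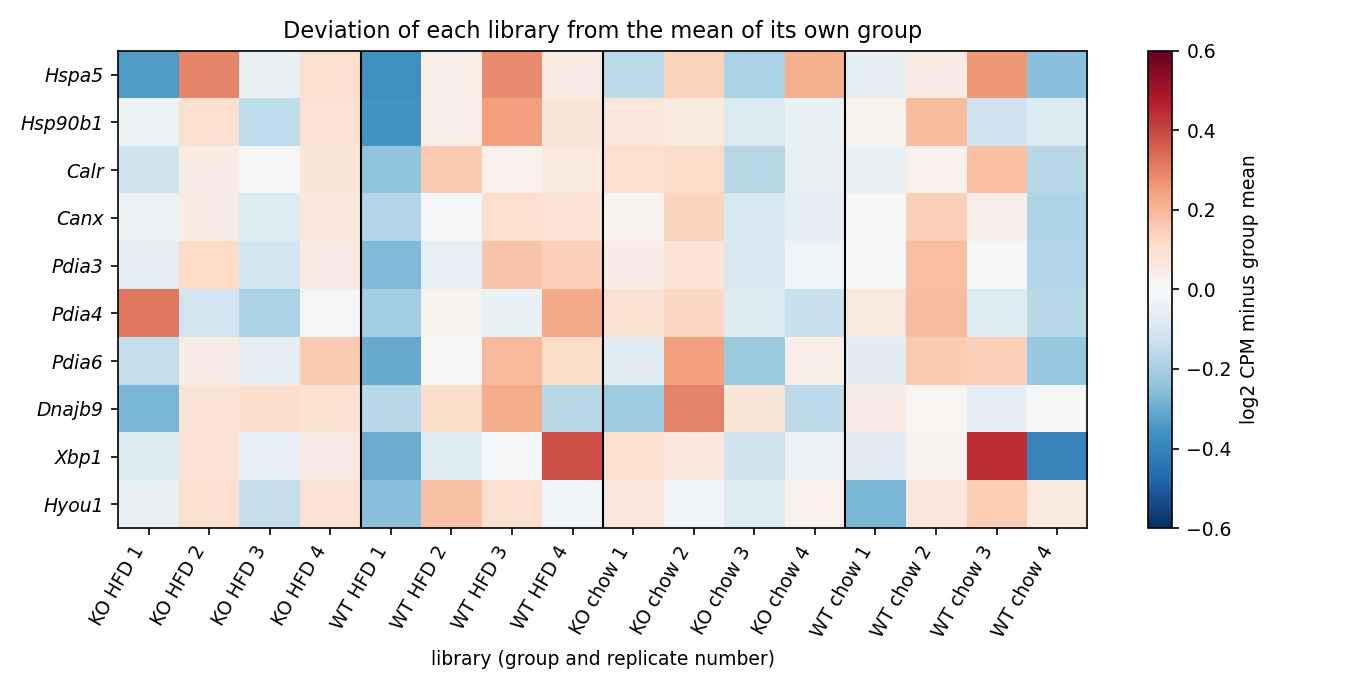
Deviation of each library's log2 CPM from the mean of its own group, for 10 genes (down) and 16 libraries (across). Red is above and blue below the group mean. WT HFD replicate 1 is below its group mean for all 10 genes, and WT chow replicate 4 is the lowest or second lowest of its group for each.

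Of all genes tested outside the 10, those whose deviations were most like the members' mean included Dnajc3 (Pearson r = 0.92, Spearman rho = 0.91), Cand1 (0.91 and 0.89), Mmp3 (0.91 and 0.79) and Tbc1d12 (0.88 and 0.84). These values cover 16 libraries and were chosen from the highest among all genes tested. Without WT HFD replicate 1 and WT chow replicate 4, the 2 libraries furthest from the median, r was 0.84 for Dnajc3, 0.88 for Cand1, 0.79 for Mmp3 and 0.86 for Tbc1d12. Dnajc3 is also one of the other folding factors above and rose on HFD, whereas Mmp3, a matrix protease, did not pass the diet test over both genotypes (edgeR adjusted p = 0.994).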

How the data were processed

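Poly-A RNA of 16 inguinal fat samples, 4 in each group, was sequenced as stranded paired-end libraries, per the labels' protocols. The deposited counts are whole read pairs per gene, counted with featureCounts 2.0.3 without use of strand on an Ensembl GRCm38 annotation, per the file headers, after alignment with STAR 2.7.3a, per the submitters' processing notes. The authors' tables of KO against control hold shrunken log2 fold changes and adjusted p-values from DESeq2, per the file headers and the submitters' processing notes, and the version is not given in the sources used here. They were used for gene symbols and 1 comparison.

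From the counts, edgeR 4.0.16 (R 4.3.3) was run with TMM factors and filterByExpr. Its robust quasi-likelihood test was fitted to the 4 group means of all 16 libraries, with Benjamini-Hochberg adjustment over 16549 genes and a threshold of 0.05. A standard error was taken from the F statistic, and intervals are at 95%. Log2 CPM used a prior count of 2, and counts per CPM were 14.1 to 16.5. Steps were tested on simulated data. Alternatives were RLE and upper-quartile factors, DESeq2 1.42.0, limma-voom (limma 3.58.1), other filters, fits to the libraries compared, a replicate block, a lane term, marker scores as covariates and each library left out. The macrophage, fibroblast and adipocyte scores were chosen after seeing the data.

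The members and lists were chosen with earlier results of these data known. Every member was named, and of each other list up to 4 genes, called ones first by adjusted p. Mzb1 was named after its counts were seen. Likeness was taken as the correlation with the mean standardised deviation of the members, for the 5 highest genes, of which 1 is not reported here. Promoter windows came from RefSeq. Protein motifs were not analysed here.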

Additional observations from a re-analysis of the deposited data

Results flagged for a closer look

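One library stood apart from the other 3 of its group. Dnajb9 was at 40.6 CPM in KO HFD replicate 1, against 51.8 to 52.7 CPM in the other 3 KO HFD libraries, a gap that made up 0.926 of the group's range. Of 40 combinations of gene and group examined in this way this was the only 1. Chance alone gives about 1 in 20, so the count is not above what chance gives. The same library was the highest of KO HFD for Pdia4, at 104 CPM. Its lymphoid score, the mean log2 CPM of the B and T cell markers, was 4.92, beside 0.27, 0.71 and 0.47 in the other 3. It was also the only KO HFD library that was not merged over lanes. Whether either goes with the gap was not tested.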

How the results depend on the processing

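The count of members that passed on HFD against chow in KO (4) was 2 with upper-quartile factors, with no filter on low counts, with only the 8 libraries compared, with the replicate block, with a term for libraries of 1 lane, and with the lymphoid or macrophage score as a covariate. It was 1 with only the libraries merged over lanes and with the fibroblast or adipocyte score, and ran from 1 to 4 when each library was left out. The count in WT (8) was 4 with only the 8 libraries compared and with the fibroblast score, 3 with the macrophage or adipocyte score and 0 with only the merged libraries, and ran from 4 to 8 when each library was left out. Over both genotypes (8) it ran from 6 to 9, and from 7 to 9 when each library was left out, with Xbp1 counted where it passed as lower. The genotype and interaction counts were 0 under every alternative run. The replicate numbers did not pair the samples: the mean correlations of same-numbered samples were −0.09, −0.12, −0.02 and −0.10. Samples of different numbers and groups had a mean of 0.03, and 5 of 16 libraries correlated best with their own number. With the replicate block the counts were 2 in KO, 7 in WT and 8 over both genotypes. Over all genes, calls in KO (2071) ran from 798 to 3441, in WT (1957) from 224 to 2778 and over both genotypes (5471) from 3033 to 6363. The range when each library was left out was 773 to 2711 in KO, 700 to 2401 in WT and 4503 to 5977 over both genotypes. With the replicate block they were 1126, 1050 and 4646. Fits on fewer libraries have fewer degrees of freedom, but their counts moved both up and down. What moved the counts was not tested for any alternative. No called value changed sign. Hspa5 in KO lost its call with the adipocyte score (edgeR adjusted p = 0.0627) and in WT with only the merged libraries (0.0620), and Hspa5, Hsp90b1, Calr, Canx and Hyou1 remained called over both genotypes in all 14 alternatives.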
